A study of Mus musculus with 36 samples.

Results

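The 1168 regions described here are methylated clusters of CpG sites that lie over the coding part of genes and away from promoters. They were taken from 16391 autosomal CpG clusters that had at least 1 position with a value in every sample (16734 clusters with the sex chromosomes). A cluster was a run of at least 20 listed cytosine positions, each at most 100 bp from the next, and its level is the mean of those positions in it that have values in all samples. Of the autosomal clusters, 8260 overlapped a coding sequence (CDS) of the GENCODE M21 annotation. Of these, 1280 lay more than 1000 bp from every annotated transcription start site (TSS), and the 1168 among them with a mean level over 80% in the 18 Control samples were chosen. The clusters were thus selected on the Control levels, and those levels are given as a description. They lie in 986 genes.

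The data come from B3, a mouse pre-B lymphocyte cell line, profiled by reduced representation bisulfite sequencing (RRBS) in 36 samples. In the Ikaros series the cells carried an MSCV retroviral vector that encodes HA-Ikaros-ERt2-IRES-GFP, a tagged Ikaros fused to a hormone-binding domain that keeps it out of the nucleus until 4-hydroxytamoxifen (4-OHT) is given. In the Control series they carried the vector without Ikaros (named control vector-ERt2 in the labels). Both series were sampled before induction (0 h) and at 5 times after it (2, 6, 12, 18 and 24 h), with 3 replicates each, and 0.5 uM 4-OHT was added to both. The labels give that dose at 0 h too, whereas the methods of the study describe the 0 h cells as not induced. The methods add that the 0 h cells were obtained separately. A change from 0 h and a difference of collection can therefore not be told apart. Replicates are batches of 1 cell line: batches 1, 2 and 4 at 0 h, and batches 1, 3 and 4 at the other times. Replicate 2 is therefore batch 2 at 0 h and batch 3 afterwards, and the methods describe 1 population of cells per series, so that effects of Ikaros and of the separate history of each population cannot be told apart.

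In mammalian cells most CpG sites outside promoters and enhancers carry methyl groups, and the bodies of genes are usually methylated beyond the region of the start. Promoters with many CpG sites are kept free of the mark in most cell types, and methylation there goes along with silencing. Methylated CpG sites inside coding exons are also known as places of frequent mutation, because methylated cytosine turns into thymine when it loses its amino group. RRBS cuts DNA with MspI at CCGG and reads the ends of the short fragments, so that coding exons enter the data mainly where they are rich in CpG and hold such cut sites.

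The sequences of 8 clusters show what was measured. They are the 3 clusters with the smallest p-value that were higher in the Ikaros series (in Islr2, Robo3 and Tmem88b), the 3 with the smallest p-value that were lower (in Mtcl1, Celsr1 and Ror2), and the 2 whose positions differed most in level (in Prss56 and Slc26a10). All are given on the forward strand of GRCm38 from the RefSeq copy of that assembly, with each CG that the deposited table lists and that lies whole within the region in capitals. The first listed position of Slc26a10 is the reverse-strand cytosine opposite the opening base of its region, which stands in lower case because its CG begins 1 bp earlier. The regions are chr9:58199175-58199474 for Islr2, chr9:37420876-37421037 for Robo3, chr4:155784309-155784505 for Tmem88b, chr17:66343853-66344152 for Mtcl1, chr15:86030519-86030818 for Celsr1, chr13:53111314-53111613 for Ror2, chr1:87186961-87187246 for Prss56 and chr10:127178611-127178847 for Slc26a10. Clusters over 300 bp are shown by their central 300 bp. Of these genes only Prss56 is read from the forward strand.
Islr2: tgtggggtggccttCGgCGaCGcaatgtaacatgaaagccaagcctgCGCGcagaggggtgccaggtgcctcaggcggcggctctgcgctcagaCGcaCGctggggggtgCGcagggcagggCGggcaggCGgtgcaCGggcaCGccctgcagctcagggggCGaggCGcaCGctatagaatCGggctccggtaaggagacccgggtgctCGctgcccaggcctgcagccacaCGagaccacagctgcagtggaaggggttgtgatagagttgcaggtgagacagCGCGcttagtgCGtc
Robo3: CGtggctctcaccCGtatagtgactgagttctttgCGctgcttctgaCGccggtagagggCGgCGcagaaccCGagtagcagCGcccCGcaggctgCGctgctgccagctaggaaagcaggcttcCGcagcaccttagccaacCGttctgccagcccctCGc
Tmem88b: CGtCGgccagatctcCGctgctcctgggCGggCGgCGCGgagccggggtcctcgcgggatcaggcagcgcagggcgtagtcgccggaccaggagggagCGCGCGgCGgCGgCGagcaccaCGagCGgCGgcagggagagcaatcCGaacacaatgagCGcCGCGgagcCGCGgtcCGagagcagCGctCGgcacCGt
Mtcl1: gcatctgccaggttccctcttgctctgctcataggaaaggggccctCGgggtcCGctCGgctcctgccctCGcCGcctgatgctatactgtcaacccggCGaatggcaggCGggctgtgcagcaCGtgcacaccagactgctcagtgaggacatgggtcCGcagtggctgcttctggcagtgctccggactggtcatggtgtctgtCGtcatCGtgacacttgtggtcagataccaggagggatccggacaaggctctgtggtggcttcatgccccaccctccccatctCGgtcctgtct
Celsr1: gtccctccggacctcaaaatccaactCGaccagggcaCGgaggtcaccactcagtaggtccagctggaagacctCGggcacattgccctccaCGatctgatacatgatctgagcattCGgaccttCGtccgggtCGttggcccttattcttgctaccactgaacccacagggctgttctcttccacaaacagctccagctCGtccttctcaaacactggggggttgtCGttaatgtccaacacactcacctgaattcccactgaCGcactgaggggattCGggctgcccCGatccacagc
Ror2: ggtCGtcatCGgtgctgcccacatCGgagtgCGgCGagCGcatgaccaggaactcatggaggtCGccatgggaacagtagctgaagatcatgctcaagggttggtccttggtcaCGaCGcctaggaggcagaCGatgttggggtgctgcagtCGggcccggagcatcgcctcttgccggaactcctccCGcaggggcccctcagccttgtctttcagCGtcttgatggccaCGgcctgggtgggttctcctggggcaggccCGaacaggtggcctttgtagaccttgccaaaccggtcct
Prss56: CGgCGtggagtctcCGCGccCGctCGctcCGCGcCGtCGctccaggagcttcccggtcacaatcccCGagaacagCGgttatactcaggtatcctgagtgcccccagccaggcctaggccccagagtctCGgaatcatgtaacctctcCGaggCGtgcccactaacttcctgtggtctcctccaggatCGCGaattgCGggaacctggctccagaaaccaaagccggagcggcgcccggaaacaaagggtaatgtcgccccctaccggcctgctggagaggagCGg
Slc26a10: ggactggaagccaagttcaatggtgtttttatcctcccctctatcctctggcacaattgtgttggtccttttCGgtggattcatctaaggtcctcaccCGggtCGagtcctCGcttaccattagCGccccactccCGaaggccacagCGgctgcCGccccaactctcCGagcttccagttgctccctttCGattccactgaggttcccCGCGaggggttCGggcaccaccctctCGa
The 300 bp of Islr2 hold 21 listed CG, those of Ror2 15 and those of Mtcl1 and of Celsr1 12 each, whereas the 197 bp of Tmem88b hold 26. Otherwise, a CG in lower case is one that the table does not list. Not every listed CG enters the level of its cluster, which rests on positions complete in all samples. These were 19 of 40 listed positions in Islr2, 22 of 38 in Mtcl1 and 15 of 21 in Celsr1, but 25 of 25 in Robo3. The listed CG stand in groups, and stretches without any lie between them, as in the first part of the Slc26a10 region.

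Nearly all coding clusters away from promoters were methylated. Of the 1280, 1168 (91.2%) had a Control level over 80%, 66 lay between 20% and 80%, and 46 at 20% or below. By comparison, 2468 of the 6980 autosomal coding clusters within 1000 bp of a TSS (35.4%) had a Control level over 80%. The share of coding clusters that were methylated was 88.3% (295 of 334) at 1000 to 2000 bp from the nearest TSS, 90.8% (395 of 435) at 2000 to 5000 bp, 92.8% (384 of 414) at 5000 to 20000 bp and 96.9% (94 of 97) farther away. These shares follow from the rule and were not tested.

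**Figure D1:**
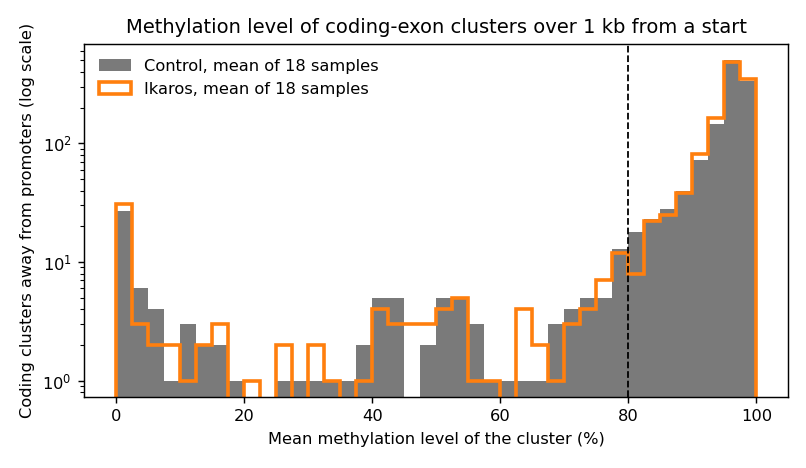
Histogram of the mean methylation level (%, x axis) of the 1280 coding-exon clusters over 1000 bp from a TSS, with the number of clusters on a log scale (y axis), for the Control (grey) and the Ikaros series (orange line). The dashed line is the Control level of 80% that selected the 1168 clusters to its right; most of these lie over 95% and a small group of 46 clusters lies at 20% or below.

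Among the chosen clusters the Control level had a median of 96.7% (quartiles 94.5% and 97.6%), and 765 of them lay between 95% and 98%. Another 76 lay over 98%, 218 between 90% and 95%, and 109 between 80% and 90%. In the Ikaros series, whose values did not enter the rule, the median was 96.8% (quartiles 94.5% and 97.6%), and 5 clusters were at 80% or below. Just inside the Control threshold were clusters in Slc27a1, a fatty acid transporter (80.1%), Lrp1, an endocytic receptor (80.1%), and Umod, the kidney protein uromodulin (80.2%). Just outside were clusters in Clmp (79.9986%), Wnt1 (79.99%) and Lrrn2 (79.7%).

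The deposited values were high in each of the 36 samples. The median over the 1168 clusters ran from 96.3% to 97.5% in the 18 Control samples, with a median of 96.7%, and from 96.0% to 97.3% in the 18 Ikaros samples, with a median of 96.7%. With the times pooled, the 2 series overlapped almost completely by this measure. At 0 h, however, all Control medians lay above all Ikaros medians, and at 24 h all lay below them. Between 4 and 46 clusters per Control sample, and between 7 and 24 per Ikaros sample, had a level under 80%. The tables hold levels without read numbers. The depth of a level is therefore unknown, and its precision can be judged only from the spread between samples. That spread had a median SD of 1.48 percentage points over the Control samples and 1.73 over the Ikaros samples (n = 18 each, times pooled). The samples differed in completeness: between 0.110% and 11.6% of all listed positions were empty in a Control sample, the highest being Control 0 h replicate 1, and between 0.139% and 3.18% in an Ikaros sample, the highest being Ikaros 24 h replicate 2. The share of levels at exactly 0 or 1 ran from 21.0% to 36.2% in the Control and from 26.9% to 59.1% in the Ikaros samples.

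**Figure D2:**
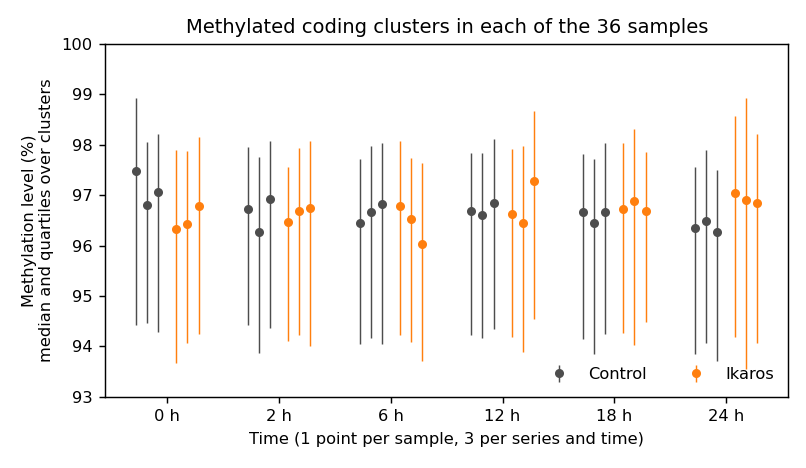
Methylation level (%, y axis) of the 1168 clusters in each of the 36 samples by time (x axis), as the median (point) with the quartiles over clusters (bar), for the Control (grey) and the Ikaros series (orange), with replicates 1 to 3 from left to right. All medians lie between 96.0% and 97.5%; at 0 h the 3 Control points lie above the 3 Ikaros points, and at 24 h below them.

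The clusters were short and dense in CpG. Their median length was 335 bp (quartiles 239 bp and 489 bp), with 30 listed positions from 18 CG dinucleotides, of which both strands can be listed. The median distance to the nearest TSS was 3870 bp, the nearest allowed being 1003 bp and the farthest 210470 bp. In all, 85.6% of the 49990 listed positions fell into a CDS, and in 605 clusters (51.8%) all of them did. In 117 clusters fewer than 50% of the positions were coding, and 1 cluster touched a CDS only between its positions. Complete values were present at 39949 positions, a median of 25 per cluster. In 59 clusters the level rests on fewer than 10 positions and in 18 on fewer than 5, down to 1 position.

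Within genes the clusters lay toward the 3′ end. On the transcript with the longest CDS among those the cluster overlaps, the median cluster centre was 77.0% of the way from the start to the end. Of the 1168 clusters, 533 (45.6%) lay in the last 20% of the transcript and 84 (7.19%) in the first 20%. The rule itself removed clusters within 1000 bp of every annotated start, which lowers the share in the first part. No share over all coding clusters is given beside these. Counted by exon, 122 clusters lay in genes with 1 coding exon, 103 touched the first of several coding exons, 448 (38.4%) touched the last, and 495 touched internal coding exons only. The coding exons were long, with a median of 572 bp. A total of 601 clusters (51.5%) fell wholly inside 1 coding exon and 79 reached more than 1.

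Clusters of 3 kinds away from promoters were set side by side: the coding clusters, 384 methylated clusters within introns and 641 outside genes, all with the same Control threshold. The median Control level was 96.7% in coding, 95.0% in intronic and 94.8% in intergenic clusters. The Ikaros medians, which did not enter the rule, were 96.8%, 95.3% and 95.0%. In 36 of the 36 samples the coding median was above both others, the intronic medians running from 94.6% to 96.4% and the intergenic ones from 94.5% to 96.0%. Base composition was set side by side too, with a median GC content of 62.9%, 62.6% and 62.9% and an observed-to-expected CpG ratio of 0.723, 0.739 and 0.726. The 46 coding clusters at 20% or below had a median level of 1.40% in Control and a higher GC content (66.7%) and CpG ratio (0.849). Levels within a cluster were more even in the coding class, where the highest and lowest positions differed by a median of 2.78 percentage points, than in the intronic (5.05) and intergenic (5.44) classes. None of these differences between classes was tested, since the clusters of a class come from the same samples.

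Within the coding class, the more a cluster was methylated in Control the higher was its CpG ratio: the median was 0.618 at 80% to 90%, 0.658 at 90% to 95%, 0.752 at 95% to 98% and 0.790 over 98%. The SD between samples went the other way, from a median of 3.00 points over the Control samples in the lowest band to 0.996 in the highest. As these bands were cut from the Control levels, they are a description.

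Short sequence motifs were counted in a window of 300 bp at the centre of each cluster, on both strands. In clusters shorter than 300 bp the window reaches into the flanking sequence, and the shares below are shares of these windows. CCGG, the MspI site, was present in 99.9% of coding, 100% of intronic and 99.8% of intergenic clusters, and in 99.9% of all autosomal clusters. TGGGAA, a core sequence that Ikaros family proteins recognise, was found in 15.3% of coding clusters against 24.0% of intronic, 20.4% of intergenic and 15.9% of all autosomal clusters. CACGTG, the E-box bound by several basic helix-loop-helix proteins, was found in 9.08%, 6.51% and 5.62%, with 7.71% over all autosomal clusters. TGGGAA and CACGTG share no stretch that lets one match count for the other. A match shows only that the letters are there.

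Most coding clusters had an even level along their length: in 753 (64.5%) the positions differed by less than 5 points. In 114 clusters they differed by more than 20 points and in 15 by more than 50. The steepest was in Prss56, a serine protease studied in eye growth, where positions ran from 2.11% to 96.4%. Its low level came from the last 2 positions, which lie outside the CDS, while the 24 others lay between 88.7% and 97.1% in either series. In Slc26a10, an anion transporter family member, 1 noncoding position at 14.3% in Control and 11.9% in Ikaros preceded 27 positions over 90%. Itpkb, an inositol trisphosphate kinase that acts in lymphocyte signalling, rose from 24.0% at its first, noncoding position to 98.0% at its last coding position in Control, and from 35.1% to 99.3% in Ikaros. The levels were smoothed over 80 bp by the authors, so neighbouring positions are not independent and the slope of each edge depends on that width.

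**Figure D3:**
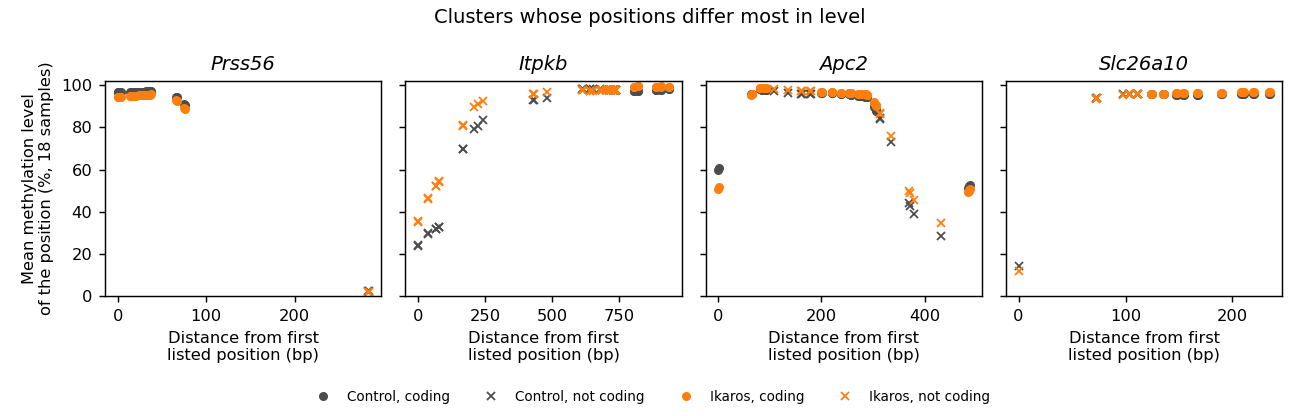
Mean methylation level of single positions (%, y axis, mean of 18 samples per series) against the distance from the first listed position (bp, x axis) in the clusters of Prss56, Itpkb, Apc2 and Slc26a10, with coding positions as circles and others as crosses, Control in grey and Ikaros in orange. The low positions of Prss56, Itpkb and Slc26a10 are not coding, whereas Apc2 has low positions of both kinds, its coding ones at 60.0% and 60.9% at the first 2 and 51.1% to 52.8% at the last 4 in Control, and in Itpkb the Ikaros crosses lie above the Control crosses at the low end.

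To compare coding and noncoding DNA under the same conditions, the 245 clusters with at least 5 complete positions of each kind were used, with the Ikaros levels. Coding positions were higher in 154 of them (62.9%), and the median difference was 0.410 points. In the Control levels they were higher in 150, with a median of 0.446 points, and in 185 clusters the sign was the same in both series. Where coding positions outnumber the others, the Control threshold keeps a low noncoding part more readily than a low coding one. The Ikaros levels lie close to the Control levels and carry this too. Smoothing over 80 bp also blurs the edge of the CDS, so these counts are a description. The coding part was higher by over 5 points in 34 clusters and lower by over 5 points in 10. The largest excess was in Vps18, a subunit of the HOPS and CORVET tethering complexes, with 95.5% at 18 coding and 66.4% at 7 noncoding positions in Ikaros. Ccm2l (96.6% and 72.6%), Gse1 (96.0% and 73.7%) and Tead3, a TEAD transcription factor (93.2% and 71.0%), came next. The largest excess of the noncoding part was in Fam155a, with 81.0% at coding and 95.6% at noncoding positions. Evpl, which encodes the cornified envelope protein envoplakin (77.0% and 88.4%), Sall1, a zinc finger factor (87.0% and 96.8%), and Tbx1, a T-box factor (88.6% and 97.1%), followed.

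The levels were also set out by the place of the CG in the codon. Each CG was assigned to the codon position of its cytosine on the coding strand, and 18721 CG had 1 such position. Of these, 8056 (43.0%) began at the third base of a codon, 5470 (29.2%) at the first and 5195 (27.8%) at the second. The mean Ikaros level was 95.9% at the third, 96.0% at the first and 96.1% at the second position, with SDs over CG of 4.28, 4.03 and 4.20 points. The Control means were 95.9%, 95.8% and 95.9%. The levels were smoothed over 80 bp, so a CG shares much of its level with neighbours at other codon positions. Near-equal means follow from this, and they cannot show whether methylation depends on codon position.

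Several genes held more than 1 cluster, and 330 of the 1168 clusters lay in 148 such genes. Plec, which encodes the cytoskeletal linker plectin, held 8, of which 7 lay in its last 2 coding exons of 6213 bp and 3381 bp. All 8 were within 97.5% to 97.9% in Control and 97.0% to 98.1% in Ikaros. Ttbk1, a tau tubulin kinase, held 5, from 92.0% to 96.6% in Control and 92.3% to 97.1% in Ikaros. Cdh23, Evpl, Speg and Zfp503 held 4 each. Cdh23, a cadherin of hair cells, spanned 89.1% to 97.8% in Control, and its lowest cluster lay in coding exon 6 of 69. Evpl spanned 83.5% to 96.8%, its 2 clusters in the last coding exon being the highest. Speg, a kinase of striated muscle, spanned 91.6% to 95.4%, and Zfp503, a zinc finger protein, 94.7% to 98.0%. Over the 148 genes the highest and the lowest cluster of a gene differed by a median of 1.09 points in Ikaros. Clusters of 1 gene are not separate observations of a condition.

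By Ikaros level, the extremes were as follows. The lowest were in Gbp5, an interferon-induced guanylate-binding protein (78.3% ± 3.05, SD, n = 18), Rbp3, a retinoid-binding protein of the retina (78.4% ± 7.38), and Ajap1, a protein of adherens junctions (78.8% ± 4.08). The Rbp3 value rests on 6 positions. The highest were in Nfkbib, an inhibitor of NF-kappaB (99.4% ± 0.957), Cxxc5 (99.1% ± 1.25) and Ppfia4 (98.8% ± 1.27). In Control the same clusters had 82.4%, 80.7%, 81.9%, 98.2%, 97.7% and 97.5%.

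The design asks whether cells with inducible Ikaros differ from Control cells. At 43 of the 1168 clusters they did, with 35 higher and 8 lower in the Ikaros series (limma on the cluster means of the M-values with time as a factor, adjusted p under 0.05 over all 16734 clusters). This is 3.68% of the coding clusters beside 4.84% of all clusters tested. The 35 higher ones make up 3% beside 3.71% of all clusters, and the 8 lower ones 0.685% beside 1.13%, both shares lying below the background. The Control levels that selected the clusters are also 1 side of this difference. Where the Ikaros levels took their place in the rule, 47 of 1172 clusters were called, 39 higher and 8 lower. Nothing in the labels says more of the replicates than their batch, so the p-values measure the spread between these samples. Without Control 24 h replicate 2, which was the highest Control sample at 6 of the 35 higher clusters, more than any other, 44 were called (36 higher, 8 lower). With the shares of empty values and of exact 0 or 1 levels as covariates of each sample, 12 were called, 7 of them among the 43 (Islr2, Robo3, Tmem88b, Synpo2l, Tenm2, Otud1 and Comp). The other 36 lost the call, all 8 lower clusters included, with adjusted p-values from 0.0525 to 0.798. These shares differ between the series, and their part in the result was not tested. Of the 7, Otud1 lost its call without covariates when any 1 of 27 samples was left out (adjusted p up to 0.0767). With levels in place of M-values it was not called either (adjusted p = 0.101). The count of 43 fell to between 13 and 24 without 1 of the replicate numbers.

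Differences were small. Over the 1168 clusters, Ikaros minus Control had a median of 0.0870 points, with quartiles of -0.372 and 0.569 and a range from -6.67 to 6.46, and 638 clusters (54.6%) had the higher mean in Ikaros. The median was 0.143 in intronic, 0.0732 in intergenic and 0.0362 in all autosomal clusters. The called clusters differed by a median of 2.70 points where higher and -2.69 points where lower. The smallest called difference was 1.15 points and 4 were over 5 points. In 43 of 43 called clusters the difference had the same direction at the coding positions alone. This was largely fixed in advance, since coding positions are part or all of each cluster level. In Islr2, Tmem88b, Mtcl1, Celsr1 and Ror2, among others, every complete position was coding. With only coding positions in the fit 33 of 1138 clusters were called. Of the genes with a called cluster, 12 held more than 1 cluster, and in none of them was more than 1 called. The 2 groups of 18 samples overlapped at all 1168 clusters, the called ones included.

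By Control level, the called clusters are set beside all tested clusters of the same band. From 80% to 90%, 15 of 109 clusters were higher (13.8%, beside 14.8% of all clusters of that band) and none was lower (beside 0.560%). From 90% to 95%, 11 of 218 were higher (5.05%, beside 7.51%) and 1 was lower (0.459%, beside 0.453%). From 95% to 98%, 9 of 765 were higher (1.18%, beside 1.17%) and 7 were lower (0.915%, beside 0.421%). Of the 76 clusters over 98% none was called, beside 0% higher and 0.165% lower. The bands were cut from the Control levels, which are 1 side of the tested difference, so these counts are a description and nothing is read from their order.

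**Figure D4:**
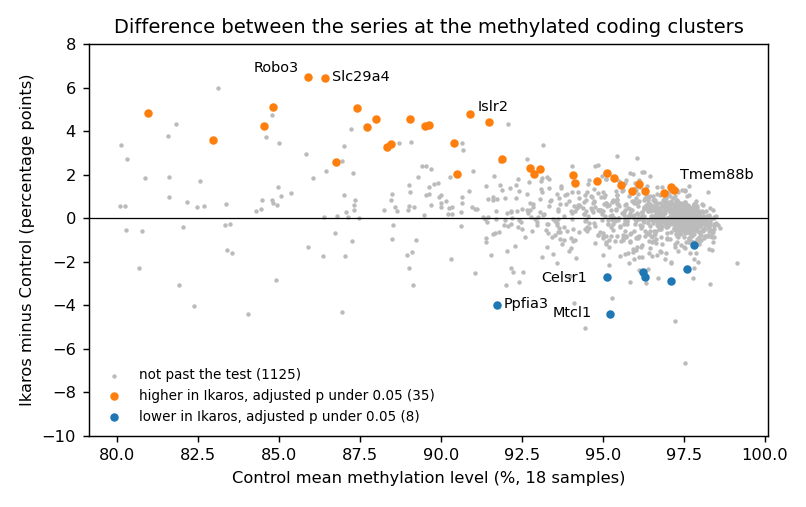
Difference of the mean levels, Ikaros minus Control (percentage points, y axis), against the Control mean (%, x axis) at the 1168 clusters, with the 35 clusters called higher in orange, the 8 called lower in blue and the others in grey. Of the 1168 points 875 lie within 1 point of 0, and the orange points lie at Control levels up to 98%, with the largest differences in the lower part.

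Among the clusters higher in Ikaros, the smallest p-value was in Islr2, a membrane protein with leucine-rich repeats found on axons, in the last of its 2 coding exons (chr9:58199170-58199478). The Control samples ran from 86.5% to 96.6% with a median of 91.2%, and the Ikaros samples from 92.5% to 97.8% with a median of 96.1% (n = 18 each). Of the Ikaros samples, 6 lay above all Control samples, and the other 12 overlapped with them. Ikaros minus Control was 4.77 points (SE 0.738, adjusted p = 2.5e-05). With covariates the adjusted p was 0.0193. This cluster has 19 complete of 40 listed positions, and over all listed positions the adjusted p was 0.00171.

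Robo3, an axon guidance receptor, had its cluster in coding exon 17 of 28 (chr9:37420876-37421036). In Control the lowest, median and highest of 18 samples were 78.3%, 86.0% and 92.9%, and in Ikaros 88.2%, 92.5% and 96.1%. Here 8 Ikaros samples lay above all Control samples. The means differed by 6.46 points (SE 1.06, adjusted p = 4.11e-05, and 0.0316 with covariates), the largest positive one of all 1168 clusters.

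The Tmem88b cluster lay in the last of 2 coding exons of a transmembrane protein gene (chr4:155784309-155784504). Its level had a median of 97.2% in Control (lowest 94.8%, highest 98.0%, n = 18) and of 98.6% in Ikaros (lowest 97.3%, highest 99.8%, n = 18). Both series were near full methylation, and 12 Ikaros samples lay above all Control samples. The difference was 1.45 points (SE 0.254, adjusted p = 4.11e-05, and 0.00814 with covariates).

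Gprin2, a gene of neurite outgrowth with 1 coding exon, was the fourth. Across the 18 Control samples it lay between 76.1% and 91.1% (median 84.8%), and across the 18 Ikaros samples between 79.4% and 97.8% (median 90.6%). Ikaros minus Control was 5.10 points (SE 1.26, adjusted p = 0.00102). It no longer passed with covariates (adjusted p = 0.0688). Synpo2l, an actin-binding protein of striated muscle, lay close to the threshold of the rule. The Control samples ran from 75.8% to 85.6% with a median of 80.9%, and the Ikaros samples from 78.7% to 92.4% with a median of 86.0% (n = 18 each). The means differed by 4.84 points (SE 0.895, adjusted p = 0.00144, and 0.0278 with covariates). Tenm2, a teneurin of synaptic contacts, was the sixth. In Control the lowest, median and highest of 18 samples were 92.8%, 95.3% and 96.9%, and in Ikaros 94.5%, 97.1% and 100%. The difference was 2.05 points (SE 0.405, adjusted p = 0.00344, and 0.0283 with covariates), and 12 of the Ikaros samples lay above all Control samples.

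By size, Slc29a4 and Vps37d complete the group after Robo3 and Gprin2. Slc29a4 encodes a transporter of monoamines, and its cluster reached coding exons 7 and 8 of 10. Its level had a median of 85.7% in Control (lowest 79.6%, highest 96.2%, n = 18) and of 93.4% in Ikaros (lowest 82.3%, highest 99.2%, n = 18). Ikaros minus Control was 6.45 points (SE 1.59, adjusted p = 0.00786). With coding positions alone the adjusted p was 0.102, and with covariates 0.367, so that the call was lost in both. The second cluster of this gene went from 93.3% to 95.1% and did not pass the test (adjusted p = 0.128). Vps37d, a subunit of the ESCRT-I sorting complex, had its cluster in the last of 4 coding exons. Across the 18 Control samples it lay between 75.1% and 95.2% (median 88.8%), and across the 18 Ikaros samples between 88.2% and 95.9% (median 93.1%). The means differed by 5.05 points (SE 1.25, adjusted p = 0.00827, and 0.798 with covariates). Itpkb passed too (84.5% ± 1.53 and 88.8% ± 2.03, SD, n = 18 each, adjusted p = 0.0287, and 0.104 with covariates), but its coding positions were at 97.6% and 99.3% and its noncoding ones at 81.2% and 86.1%. With coding positions alone its adjusted p was 0.0543, and the call was lost without Control 2 h replicate 1 or without Ikaros 2 h replicate 3 (adjusted p up to 0.0504).

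The lower clusters were led by Mtcl1, a protein that crosslinks microtubules, in coding exon 13 of 14 (chr17:66343759-66344245). The Control samples ran from 92.5% to 97.3% with a median of 95.2%, and the Ikaros samples from 86.1% to 95.7% with a median of 90.9% (n = 18 each). Here 12 Ikaros samples lay below all Control samples. The difference was -4.39 points (SE 0.749, adjusted p = 0.000222). The adjusted p was 0.0525 with covariates and 0.148 over all listed positions.

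Celsr1, a cadherin of planar cell polarity, had its cluster in its first coding exon (chr15:86030496-86030840). In Control the lowest, median and highest of 18 samples were 92.5%, 95.3% and 97.0%, and in Ikaros 87.0%, 92.5% and 95.4%. In 9 Ikaros samples the level was below all Control samples. Ikaros minus Control was -2.68 points (SE 0.489, adjusted p = 0.00031, and 0.167 with covariates). Ror2, a receptor tyrosine kinase that binds Wnt5a, had its cluster in the last of 9 coding exons (chr13:53111308-53111618). Its level had a median of 96.1% in Control (lowest 93.4%, highest 99.2%, n = 18) and of 94.1% in Ikaros (lowest 85.9%, highest 95.8%, n = 18). The means differed by -2.69 points (SE 0.571, adjusted p = 0.00629, and 0.515 with covariates).

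Ppfia3, a liprin of presynaptic sites, was called lower as well. Across the 18 Control samples it lay between 85.6% and 95.3% (median 92.1%), and across the 18 Ikaros samples between 83.5% and 94.5% (median 87.3%). The difference was -3.98 points (SE 0.891, adjusted p = 0.00838, 0.352 over all listed positions and 0.159 with covariates). Wnt11, a Wnt ligand, differed by -2.47 points (from 96.2% ± 1.72 to 93.8% ± 2.24, SD, n = 18 each, adjusted p = 0.0183, 0.156 over all listed positions and 0.178 with covariates). Lpin3, a lipin phosphatase, differed by -2.34 points (adjusted p = 0.0234, and 0.580 with covariates). Whrn, the stereocilia scaffold whirlin, differed by -2.89 points (adjusted p = 0.0382, and 0.518 with covariates), and its call was lost when any 1 of 16 of the 36 samples was left out, Control 24 h replicate 2 among them (adjusted p = 0.0594, at most 0.0643). The remaining lower cluster was in Zfp628. At all 8 lower clusters the samples of the series overlapped.

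**Figure D5:**
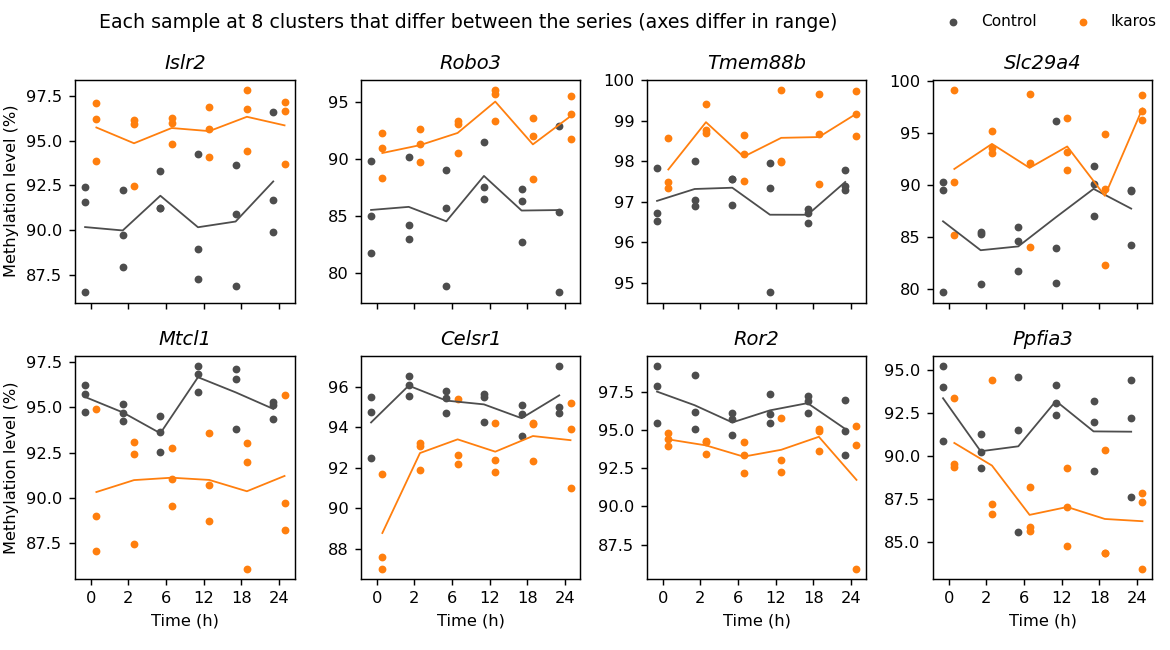
Methylation level (%, y axis, with a range of its own in each panel) of every sample by time (h, x axis) at the clusters of Islr2, Robo3, Tmem88b, Slc29a4, Mtcl1, Celsr1, Ror2 and Ppfia3, with Control in grey and Ikaros in orange. Points are samples (3 per series and time) and lines join their means; the means of the series are apart at 0 h as well, and single samples of both overlap.

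The difference was already present at 0 h. At that time 39 of the 43 called clusters had their called direction, with a median of 3.02 points in that direction, and at the 5 later times 41 to 42 had it, with medians from 2.33 to 2.86 points. In Islr2, Control and Ikaros were at 90.2% ± 3.19 and 95.7% ± 1.67 at 0 h (SD, n = 3 each) and at 92.7% ± 3.46 and 95.9% ± 1.88 at 24 h. In Mtcl1 they were at 95.6% ± 0.770 and 90.3% ± 4.09 at 0 h and at 94.9% ± 0.486 and 91.2% ± 3.93 at 24 h. As all times entered the call, these values describe it and do not test it. Without the 0 h samples, 47 clusters were called, 36 of them among the 43.

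Gene groups were read from lists of families that are rich in long coding exons, and from lists of chromatin and B-lineage genes. Over all clusters tested 3.71% were called higher and 1.13% lower. Of 57 clusters in 49 genes of C2H2 zinc finger proteins, the largest family of transcription factors, none was higher and 1 was lower (Zfp628), a call lost when any 1 of 20 samples was left out (adjusted p up to 0.0753) and with covariates (0.590). Their median difference was 0.132 points beside 0.0870 over all coding clusters. The largest difference of the group was in Zfp827 (from 97.8% to 95.0%), which did not pass (adjusted p = 0.187). Of 21 clusters in 14 cadherin superfamily genes, which mediate cell adhesion, 1 was lower (Celsr1) and the median difference was -0.573 points. Cdh23 had the largest (from 89.1% to 92.6%, adjusted p = 0.605 on the M-values and 0.00934 on the scale of levels, so that the call depends on the scale). Celsr1 was also the 1 called among 8 clusters of adhesion G protein-coupled receptors, where Adgrb2 went from 94.5% to 96.1% (adjusted p = 0.272).

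None of the 30 clusters in 19 genes of giant cytoskeletal and motor proteins was called, beside 4.84% of all clusters. Ahnak2 (from 80.3% to 83.0%, adjusted p = 0.329) and Kif26b (from 87.0% to 89.6%, adjusted p = 0.295) had the largest differences. Among 29 clusters of voltage-gated and calcium release channels, 1 was higher, in Cacna1i, a T-type calcium channel (from 89.0% ± 4.31 to 93.6% ± 3.53, adjusted p = 0.0132, and 0.374 with covariates), beside 3.71% of all clusters called higher. Kcng1 went from 97.1% to 95.1% without passing (adjusted p = 0.338). Of 15 solute carrier clusters 1 was higher (Slc29a4), and none of 3 ABC transporter clusters was called.

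Matrix, adhesion and Notch genes follow, where each list holds few clusters, beside 4.84% of all clusters called. Of 8 clusters of matrix glycoproteins, 1 was higher, in Vwf, the clotting factor von Willebrand factor (from 94.1% ± 1.29 to 96.1% ± 1.59, adjusted p = 0.0118, and 0.163 with covariates). None of 5 collagen and 2 ADAM or ADAMTS clusters was called. Of 9 semaphorin and plexin clusters, 1 was higher, in Sema4c (from 88.5% ± 2.44 to 91.9% ± 2.35, adjusted p = 0.0436), and Sema6b did not pass (adjusted p = 0.167). The Sema4c call was lost when any 1 of 26 samples was left out (adjusted p up to 0.0750) and with covariates (0.603). Of 4 clusters of Notch ligands and receptors, 1 in Notch3 was higher (from 90.5% ± 1.78 to 92.5% ± 1.46, adjusted p = 0.0234, and 0.107 with covariates). The second cluster of Notch3 went from 96.6% to 97.4% and was not called. Jag1, a Notch ligand, went from 96.4% to 97.4% without passing (adjusted p = 0.159, and 0.0358 on the scale of levels).

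None of the 18 clusters of the chromatin list was called, beside 4.84% of all clusters; 1 of them, in Uhrf1bp1, matches the list only by the start of its name. Smarca2, a chromatin remodelling ATPase, had the largest difference (from 92.4% to 89.5%, adjusted p = 0.13), followed by Prdm14 (from 95.7% to 94.0%, adjusted p = 0.387). No cluster of the genes that the study followed by RT-PCR was among the 1168.

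Of 10 coding clusters of B-lineage genes away from starts, 8 were over the Control threshold of 80%. The others were in Irf4 (43.9% in Control and 45.8% in Ikaros) and Spib (40.6% and 42.2%), both transcription factors of B cells. None of the 8 was called, beside 4.84% of all clusters. Tcf3, which encodes the E2A factors of early B cells, was at 97.3% ± 1.50 in Control and 98.5% ± 1.49 in Ikaros (SD, n = 18 each, adjusted p = 0.216). With all listed positions its adjusted p was 0.00823 and with coding positions alone 0.00455. Bcl11a, a zinc finger factor needed for B cells, held 2 clusters in its last coding exon, at 97.0% and 97.8% in Control and 98.1% and 98.1% in Ikaros. Tnfrsf13b, the receptor TACI, was at 97.7% and 97.4%, and Pik3cd, the lymphocyte PI3-kinase subunit p110delta, at 90.1% and 90.9%.

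Runx1, a factor of blood cell development, held 3 of the 8, at 98.3%, 97.9% and 96.8% in Control and 95.3%, 97.9% and 97.8% in Ikaros. The first has an SD of 8.83 points in Ikaros, where its levels ran from 60.9% to 100%. The 60.9% belongs to Ikaros 6 h replicate 1, and the other 2 replicates at 6 h were at 98.3% and 95.6%. In the third, the lowest Control sample was at 78.4% and the median at 97.7%.

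Change over time was tested within each series by a moderated F test over the 6 times, which is independent of the rule that chose the clusters apart from the shared Control samples. In the Ikaros series none of the 1168 clusters passed in limma, beside 0% of all clusters. At an unadjusted p under 0.05 there were 79, or 6.76%, beside 5.22% of all clusters, and 70 on the scale of levels, where none passed either. In the Control series none passed beside 0.012% of all clusters, with 90 (7.71%) at an unadjusted p under 0.05 beside 4.83%, and 76 on the scale of levels. For a different course over time in the 2 series, none passed beside 0%, with 79 (6.76%) at an unadjusted p under 0.05 beside 5.12%, and 66 on the scale of levels.

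The cluster with the smallest p-value of each test shows how far single clusters moved. In the Ikaros series it was in Lrg1, a secreted glycoprotein, at 89.7% ± 0.244 at 0 h, 94.5% ± 0.745 at 12 h and 85.7% ± 5.80 at 24 h (SD, n = 3 each, adjusted p = 0.516 by limma). The 12 h samples were the highest. The 24 h samples had the lowest mean and the widest spread, and the highest of them lay above all 3 samples of 0 h. In the Control series it was in Gal3st1, an enzyme of sulfatide synthesis, at 98.0% ± 1.27 at 0 h, 94.4% ± 0.806 at 2 h and 98.3% ± 0.471 at 6 h (limma adjusted p = 0.549). For the different course it was in Wdr24, a subunit of the GATOR2 complex of nutrient sensing. Its level went from 99.2% ± 0.847 at 0 h to 96.2% ± 0.449 at 24 h in Control and from 97.9% ± 0.526 to 99.7% ± 0.591 in Ikaros (limma adjusted p = 0.462). None of these 3 passed the test.

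As a group, the clusters moved by less than 1 point between the times. The mean over replicates of the sample median was 97.1% ± 0.336 at 0 h and 96.4% ± 0.113 at 24 h in Control (SD, n = 3), and 96.5% ± 0.233 and 96.9% ± 0.0987 in Ikaros. The 4 times between them lay from 96.6% to 96.7% in Control and from 96.5% to 96.8% in Ikaros. Of the 3 Control samples at 0 h, replicate 1 had 11.6% and replicate 3 had 5.41% of all listed positions empty, against 0.362% in replicate 2, and the part of these empty values in the result was not tested.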

How the data were processed

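RRBS had been measured in 36 samples of B3 cells, 18 per series, with groups, replicate numbers and batches taken from the labels. Trimmed reads had been aligned to GRCm38 by the authors with Bismark 0.10.1 and Bowtie2, and per-site levels smoothed with BiSeq after very high coverage was limited. The deposited level is the methylated fraction per cytosine, here given in percent. A second deposited table holds log2 M-values, log2(b/(1-b)), with the level b limited to at most 99% and at least 1%. Smoothing over 80 bp evens out neighbouring positions, and the limit hides differences near full methylation: 8.47% of the cluster levels were at 99% or above. Coverage was not used here, so depth is unknown and neither a minimum nor a counting error could be set.

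Clusters were rebuilt from the listed positions (at most 100 bp apart, at least 20 positions) and overlaid with GENCODE M21 in Python 3.11.15 with numpy 2.4.6 and pandas 2.3.3. Of the 1116417 positions, 95 did not lie on a CG of the RefSeq copy of GRCm38. Cluster values are means over the 895908 positions complete in all samples. M-values of 16734 clusters were tested with limma 3.58.1 in R 4.3.3, with Benjamini-Hochberg adjustment over all of them. The difference between the series had time as a factor. Change over time was a moderated F test, and a different course over time tested the interaction terms. Differences and their SE in percentage points come from the same fit on the levels. The fits were tested on simulated clusters with known changes.

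The clusters, gene lists and rules were chosen with earlier results of these data known. The result of 1 gene list is not reported here. The rule named the called clusters with the 6 smallest p-values and the 4 largest differences in each direction, the smallest p of each time test, up to 2 clusters per gene list, all B-lineage clusters, the extremes of level, of range and of coding against noncoding level, the genes with most clusters, and the 3 clusters on each side of the threshold. A few others (Itpkb and Apc2 as clusters with steep edges, and those with large differences on few positions) were chosen after their values were seen.

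Same-numbered samples of the 2 series at a time share a batch by the labels, which pairs them. The correlation of their deviations from the group means ran from -0.0442 to 0.0219 over 18 pairs, and the replicate block was tried as an alternative. Other alternatives were the levels in place of M-values, batch as a term, all listed or coding positions only, other thresholds and distances in the rule, sample covariates, leaving out the 0 h samples, and leaving out single samples or replicate numbers.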

Additional observations from a re-analysis of the deposited data

Results flagged for a closer look

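A difference between the series in the direction of change from 0 h to 24 h was the one kind of result that stood out. In every Ikaros replicate the median level of the 1168 clusters was higher at 24 h than at 0 h, by a mean of 0.415 points (0.706, 0.473 and 0.0652 for replicates 1 to 3). In every Control replicate it was lower, with a mean change of -0.749 points (-1.13, -0.319 and -0.796). This difference was not tested. The same comparison gave 1.16, 0.321 and -0.513 points in methylated intronic clusters of the Ikaros series and -1.32, -0.482 and -0.733 in Control, and 0.458, 0.306 and -0.0882 against -1.39, -0.439 and -0.823 in intergenic clusters. Replicate 2 compares batch 2 at 0 h with batch 3 at 24 h. By the methods of the study the 0 h cells were obtained separately, so in every replicate time and collection cannot be told apart. Control 0 h replicates 1 and 3 had 11.6% and 5.41% of positions empty, and Ikaros 24 h replicate 2 had 59.1% of its levels at exactly 0 or 1; the part of these shares in the result was not tested. Single clusters that were higher at 24 h in 3 of 3 Ikaros replicates and lower in 3 of 3 Control replicates numbered 56 of 1168 (4.79%), beside 2.80% of all clusters. The opposite pattern was seen in 2 (0.171%), beside 0.568%.

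Among the named clusters 4 had this pattern. In Wdr24 the change from 0 h to 24 h was 1.73 points in Ikaros and -2.92 in Control, in Rbp3 15.1 and -7.37, in Prss56 2.40 and -1.70, and in the second Runx1 cluster of the last coding exon 2.04 and -3.56 (means of 3 replicates). Single libraries moved these values. The Runx1 changes were 0.556 without Ikaros 0 h replicate 1 and -1.07 without Control 24 h replicate 2. Those of Rbp3 were 9.81 without Ikaros 24 h replicate 2 and -4.26 without Control 24 h replicate 2. For Prss56 the Ikaros change turned to -0.818 without Ikaros 0 h replicate 1. It was 4.77 without Ikaros 0 h replicate 3, and 4.79, 1.55 and 0.869 without Ikaros 24 h replicates 1, 2 and 3. Its Control change was -0.977 without Control 24 h replicate 2. For Wdr24 no single library moved a change by over 1.5 times. The 0 h to 24 h difference between the series was not tested for them. The limma test of a different course over all 6 times gave adjusted p-values of 0.462 for Wdr24, 0.965 for Rbp3, 0.965 for Prss56 and 0.965 for that Runx1 cluster.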

How the results depend on the processing

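The number of clusters called between the series, 43, was within 1.5 times under the levels (52), batch as a term (43), coding positions only (33), the 2 h to 24 h samples (47), a Control threshold of 70% (51), the Ikaros level in the rule (47), mostly coding positions (41) and each single sample left out (37 to 48). The replicate block, which follows the pairing by batch, gave 44, of which 41 were among the 43, while 2 of the 43 lost the call. The count moved with all listed positions (28), with sample covariates (12) and without a replicate number (13 to 24); the cause was not tested, apart from the fewer samples in the last. It was 28 with a Control threshold of 90% and 15 beyond 5000 bp from a TSS, where fewer clusters qualify. No time test called a cluster of the 1168 under any alternative run. The median difference between the series stayed between 0.0374 and 0.109 points. Of the 43 called clusters none changed direction; 5 lost the call on the levels, 3 without Control 24 h replicate 2 and 36 with sample covariates, and 33 kept it whichever single sample was left out. The unknown coverage and the limit at 99% set how small a difference can be seen.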

Other observations

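Of the 7 clusters that differed by more than 5 points, 2 rested on under 5 complete positions. The largest difference of all 1168 clusters was in Otx1, a homeobox gene, from 97.5% ± 4.56 in Control to 90.9% ± 14.1 in Ikaros (SD, n = 18 each), on 2 complete positions, and it did not pass the test (adjusted p = 0.343). Pcx, the gene of pyruvate carboxylase, went from 94.5% ± 4.63 to 89.4% ± 7.33 on 3 positions (adjusted p = 0.308), and Hs6st1, a heparan sulfate sulfotransferase, from 97.2% ± 7.09 to 92.5% ± 11.7 on 1 position (adjusted p = 0.501). Grm5, a glutamate receptor, differed by 5.98 points on 24 positions, with SDs of 10.0 in Control and 6.90 in Ikaros (adjusted p = 0.489). All 43 called clusters had at least 11 complete positions.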
